A study of Mus musculus with 6 samples.

Results

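The proteasome genes of mouse CD8+ T cells were compared here between cells with and without the transcriptional regulator Id2. They were taken by a rule on names: every gene whose symbol begins with Psma, Psmb, Psmc, Psmd, Psme or Psmg and that was listed in at least 1 of 6 libraries, whatever its level. The rule found 50 genes among the 16749 listed, and 49 of them were abundant enough to be tested. It also took 2 genes that are not proteasome parts, Psmc3ip, whose product works in pairing of chromosomes during recombination, and Psme3ip1, whose product binds an activator. This leaves 48 genes of the proteasome, its activators and its assembly chaperones.

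The CD8+ T cells came from the tissue labelled iLN of C57BL/6 mice that, per the series title, carried tumors and had been given oxaliplatin, a platinum drug that damages DNA. Both groups carried floxed Id2 alleles (Id2f/f), and 3 libraries from such mice without Cre are called WT here. The other 3 came from Cd4creId2f/f mice and are called knockout. Cd4-Cre acts during T cell development in the thymus and therefore in CD4 as well as CD8 T cells, and it was present in the knockout group alone, so Cre itself and loss of Id2 cannot be told apart. The age and sex of the mice, the tumor, the drug dose and the number of animals behind a library are not given in the labels, and p-values therefore measure the spread between these libraries, which may be technical. Levels are in FPKM, read fragments scaled by transcript length and library size, and are given as mean ± SD over the 3 libraries of a group. Fold changes are knockout over WT on the log2 scale, from the quasi-likelihood test of edgeR with p-values adjusted over all 10890 genes tested, and a gene is said to have fallen or risen only at an adjusted p under 0.05.

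The proteasome is the protease that breaks down proteins tagged with ubiquitin. Its core, the 20S particle, is a barrel of alpha rings around beta rings, and the proteolytic sites are held by the beta subunits encoded by Psmb5, Psmb6 and Psmb7. The 19S cap binds tagged proteins, removes the ubiquitin and threads the unfolded chain into the core with a ring of ATPases. In lymphocytes and under interferon the catalytic subunits are exchanged for those encoded by Psmb8, Psmb9 and Psmb10, which gives the immunoproteasome, and the PA28 activator can dock on the core in place of the cap. Both are known for making peptides that MHC class I molecules present.

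Promoters were examined for short motifs because many proteasome genes are known to answer together to the transcription factor encoded by Nfe2l1. Of the 50 genes, 42 had a promoter in the RefSeq table of build GRCm38.p6 (the assembly of mm10), from 250 bases before to 50 bases after a start site. The core of the antioxidant response element to which Nfe2l1 and its relative Nfe2l2 bind, searched as TGACNNNGC on both strands, was in 6 of 42, or 14.3%, against 14% of the 27025 genes of the table. These 6 sites are shown because they lie in genes that fell as well as in genes that did not, with the motif in capitals, up to 20 bases on each side in lower case, and the window cut where the promoter sequence began or at the start site.
Psmb5, chr14:54618014-54618062, minus strand: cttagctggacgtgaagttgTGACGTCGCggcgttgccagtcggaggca
Psmb6, chr11:70525328-70525356, plus strand: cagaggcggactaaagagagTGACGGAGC
Psmc6, chr14:45329577-45329625, plus strand: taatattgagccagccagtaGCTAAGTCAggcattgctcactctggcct
Psmd12, chr11:107479278-107479309, plus strand: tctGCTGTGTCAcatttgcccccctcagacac
Psmd9, chr5:123228139-123228187, plus strand: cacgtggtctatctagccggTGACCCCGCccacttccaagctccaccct
Psme4, chr11:30771758-30771786, plus strand, with 10 bases on each side: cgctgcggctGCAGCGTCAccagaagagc

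The E box CAGCTG, a site type to which E proteins, the partners that Id2 holds off DNA, can bind, was in 3 of 42 promoters (7.14%, against 18.3% of all). They were those of Psma4, Psmd10 and Psmd4. Of these genes only Psma4 fell, and its site lay across the start site.
Psma4, chr9:54950847-54950872, plus strand: ggttcttctcCAGCTGagtaaagagg

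The other E box searched, CACCTG, was in 10 of 42 (23.8%, against 22.6%). The pattern of GAAA, then 2 bases of any kind, then GAAA again, a site type of interferon regulatory factors, was in 5 of 42 (11.9%, against 3.99%), which were Psmb3, Psmd4, Psmd9, Psme1 and Psmg4. Of these only Psmb3, a core gene, fell, and 0 of the 3 immunoproteasome genes held the pattern. The windows of the activator gene Psme1 and of Psmb3 are given.
Psme1, chr14:55578493-55578522, plus strand, with 10 bases on each side: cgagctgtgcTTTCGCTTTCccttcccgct
Psmb3, chr11:97703251-97703300, plus strand: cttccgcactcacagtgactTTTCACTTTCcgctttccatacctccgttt

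CCAAT, the box of the factor NF-Y, was in 16 of 42 (38.1%, against 41.1%) and TTTGAA, the homology region of cell cycle genes, in 4 of 42 (9.52%, against 20.2%). These backgrounds include genes that were not tested here. Of the 8638 tested genes with a promoter, 16.8% held the antioxidant element, 16.7% CAGCTG and 20% CACCTG. The GAAA pattern was in 4.04% of them, CCAAT in 43.8% and TTTGAA in 15%. Among the genes that fell, 13 had a promoter in the table and 2 of these held the antioxidant element, as did 4 of the 29 other tested genes. For CAGCTG these counts were 1 and 2, for CACCTG 1 and 9, and for the GAAA pattern 1 and 4. For CCAAT they were 5 and 11 and for TTTGAA 2 and 2. A match shows only that the letters are present, and no binding was measured.

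As a check of the labels, the Id2 level was 222 ± 129 FPKM for WT against 2.14 ± 0.485 for knockout. The libraries held between 7699181 and 8495123 expected counts, the read numbers that RSEM assigns to genes. The T cell transcripts Cd8a, Cd8b1, Cd3d, Cd3e and Cd3g were present in every library and summed to 2139 to 2515 FPKM in WT and 2113 to 2667 in knockout. Markers of B cells, which carry immunoproteasomes too, varied between libraries: the sum of 14 of 16 listed markers was 951, 3176 and 3697 FPKM in WT and 697, 3011 and 629 in knockout. Pax5 was listed at 0 in knockout replicate 1, and Ighm and Ighd were listed in none of the libraries. Dendritic cell markers (7 of 8 listed) summed to 196 to 216 FPKM in WT and 113 to 159 in knockout, mostly from Bst2. Within this list Batf3 was at 2.94, 12.8 and 13.8 FPKM in the WT libraries against 0.18, 0 and 0.75 in the others, Itgax at 12.8, 5.66 and 5.54 against 0.34, 0.96 and 0.35, and Zbtb46 at 3.86, 4.22 and 3.46 against 0.68, 1.6 and 0.45, with no overlap. Xcr1 and Flt3 overlapped between the groups, Flt3 did not exceed 0.52 FPKM, and Siglech was at 0.24 to 0.3 FPKM in WT and 0.39 to 0.7 in knockout. NK cell markers (7 of 7) summed to 1835 to 3011 in WT and 907 to 1261 in knockout, nearly all from Nkg7 and Gzma, which effector CD8 T cells also express, while Ncr1 did not exceed 0.18 FPKM. The sums of both lists moved with the genotype, as the proteasome genes did, and their part in the results was not tested. The myeloid (6 of 7), plasma cell (5 of 6), stromal (6 of 6) and CD4 or regulatory T cell (8 of 8) lists had sums that overlapped between the groups, between 21.7 and 113 FPKM. Within these lists Il2ra, Zbtb7b, Prdm1, Jchain, Itgam and Sparc were lower in knockout without overlap, and Ctla4, Ikzf2 and Ikzf4 were higher. Il2ra was at 13.23 to 20.54 FPKM in WT and 3.74 to 4.52 in knockout. Ctla4 was at 51.45 to 65.39 in WT and 78.48 to 85.15 in knockout. The other listed members overlapped.

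The summed signal of the proteasome genes was lower in every knockout library than in any WT library. They held 0.781%, 0.832% and 0.891% of all expected counts in WT replicates 1 to 3 and 0.726%, 0.678% and 0.672% in the knockout libraries. The knockout mean was 0.829 times the WT mean. In bulk samples, fewer cells of a type and less RNA per cell cannot be told apart. Set beside the B cell marker sums, the WT library with the lowest sum (951 FPKM) had the lowest share of the WT libraries and the one with the highest sum (3697) the highest share. Knockout replicates 1 to 3, with sums of 697, 3011 and 629, had 0.726%, 0.678% and 0.672%.

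Of the 49 genes tested, 14 fell (28.6%) and none rose by edgeR. At an unadjusted p under 0.05, 1 was higher, and DESeq2 and limma also called 0 higher. Over all genes tested 8.77% fell and 3.14% rose by the same test. The median log2 fold change of the 49 was -0.28, a change of -17.5%, against 0.01 for all genes, and 45 of 49 values were below 0 (91.8%, against 48.1% of all genes). An unadjusted p under 0.05 with a lower knockout level was reached by 27 of 49 (16.1% of all genes), and in 26 of 49 every knockout library lay below every WT library (16.8% of all genes). The fold changes and their errors are plotted by role.

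**Figure D1:**
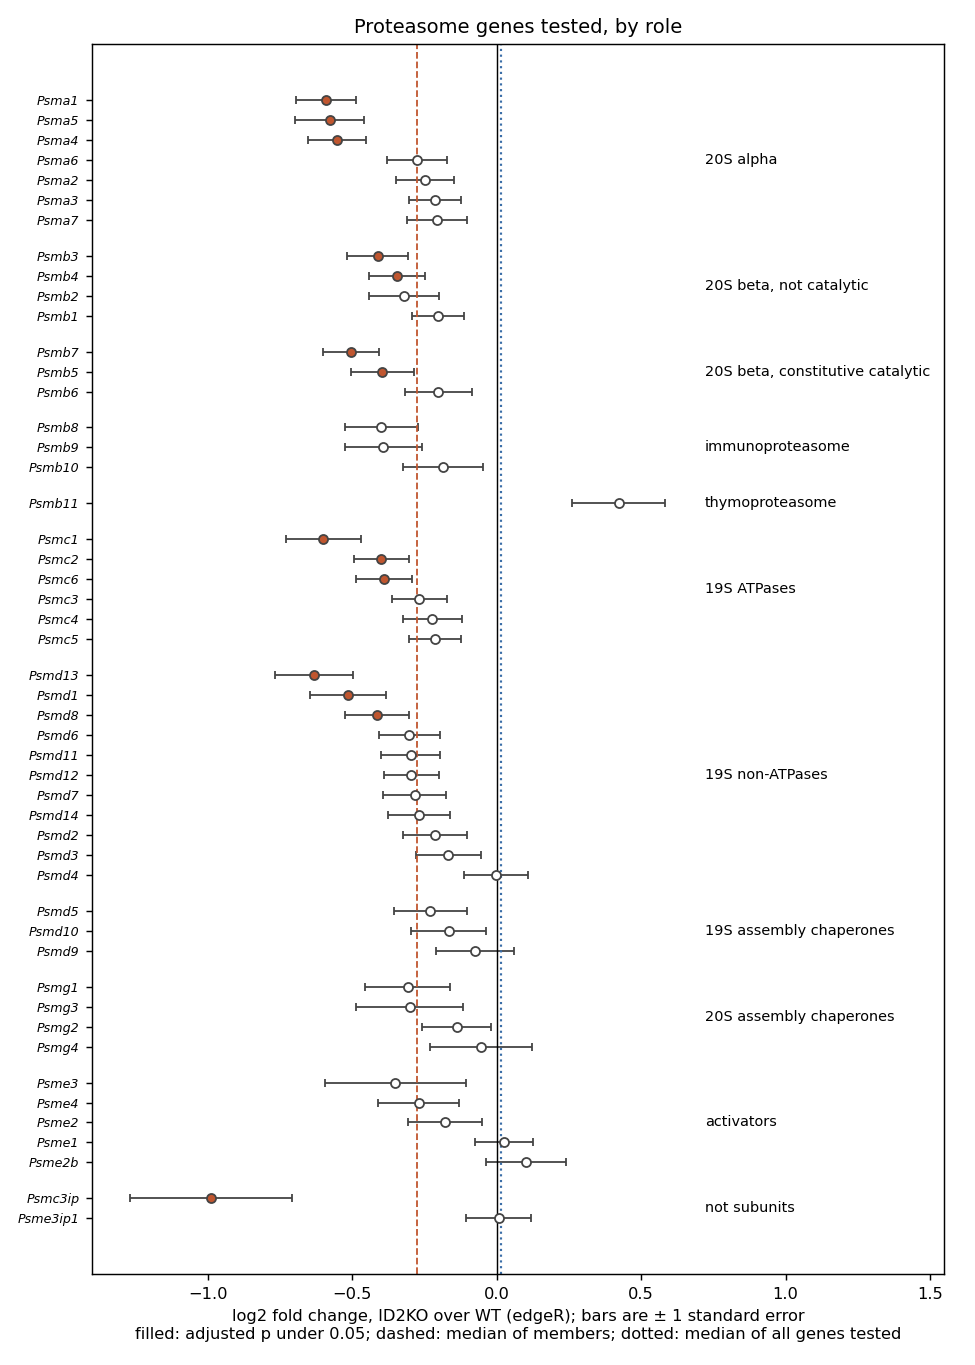
Log2 fold change (horizontal axis, knockout over WT) of the 49 tested genes, 1 row a gene grouped by role, with bars of 1 standard error and filled points for genes at an adjusted p under 0.05. All 14 core genes and all 17 cap genes lie at or below 0, the dashed line marks the median of the members at -0.28 and the dotted line that of all genes at 0.01.

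The number of genes that fell depended on single libraries. It was 3 without knockout replicate 3, where 6.12% of the members and 4.99% of all genes fell, and 4 without WT replicate 3 (8.16% against 5.18%), so that in these fits the members' share lay near that of all genes. Without WT replicates 1 and 2 and knockout replicates 1 and 2 it was 8, 9, 7 and 9. The members' shares there were 16.3%, 18.4%, 14.3% and 18.4%, against 7.37%, 7.7%, 6.32% and 9.94% of all genes. The median log2 fold change stayed between -0.31 and -0.24 in these 6 fits. In all of them 43 of 49 genes were lower, against 45 of 49 with all libraries. The fits share most of their libraries, so this is not independent evidence, and the count was not taken over all genes. Psma1, Psma4 and Psmb7 were the 3 genes that kept their call in each of the 6. With the level of the B cell markers as a covariate 8 genes fell (16.3%, against 8.5% of all genes).

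**Figure D2:**
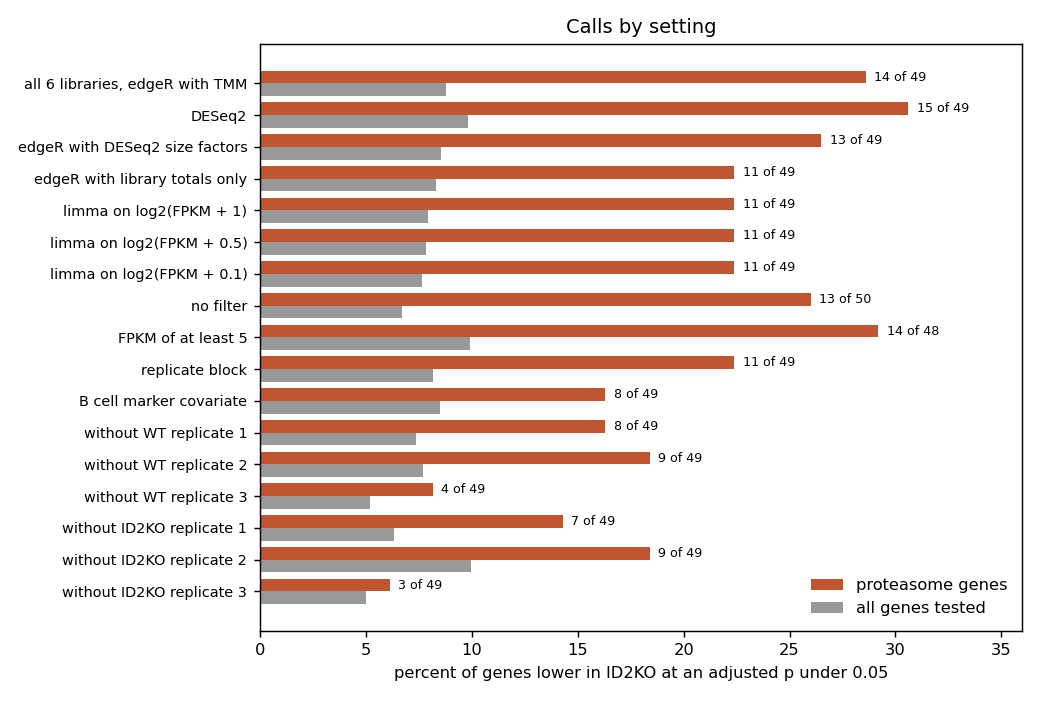
Percent of genes lower in knockout at an adjusted p under 0.05 (horizontal axis) for each way of processing and each library left out (rows), for the proteasome genes (orange, with their number) and for all genes tested (grey). The share of proteasome genes is 28.6% with all libraries and falls to 6.12% without knockout replicate 3, where that of all genes is 4.99%.

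The alpha subunits form the outer rings of the core, which dock the cap and close the gate to the chamber. Of 7 tested, 3 fell and the rest did not pass (8.77% of all genes fell). Psma1 had 158, 161 and 180 FPKM in the WT libraries and 110, 124 and 100 in those of the knockout. Psma4 had 143, 154 and 170 against 112, 111 and 97.9. Psma5 had 119, 145 and 152 against 101, 98.6 and 81.1. In all of these the lowest WT library was above the highest knockout library. The log2 fold changes were -0.59 for Psma1 (SE 0.10, adjusted p = 0.00531), -0.55 for Psma4 (SE 0.10, adjusted p = 0.00664) and -0.58 for Psma5 (SE 0.12, adjusted p = 0.0117). Leaving out WT replicate 3 or knockout replicate 3 ended the call of Psma5 (adjusted p = 0.0574 and 0.0665). Psma2, Psma3, Psma6 and Psma7 had log2 fold changes of -0.25, -0.21, -0.28 and -0.21 and adjusted p of 0.145, 0.164, 0.116 and 0.229. The groups overlapped in Psma7 and not in the other 3. The eighth alpha gene, Psma8, which is known from germ cells, had 3 counts in WT and 0 in knockout and was not tested.

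Among the beta subunits without a proteolytic site, Psmb3 and Psmb4 fell, 2 of 4 (8.77% of all genes fell). Psmb3 was at 314, 332 and 356 FPKM in WT and at 276, 235 and 248 in knockout (log2 fold change -0.41, SE 0.11, adjusted p = 0.0322). Psmb4 was at 233, 246 and 262 against 207, 196 and 185 (log2 fold change -0.35, SE 0.096, adjusted p = 0.0446). The groups did not overlap in either gene, but both calls were near the threshold. That of Psmb4 ended in every fit without 1 library (adjusted p = 0.0867, 0.0805 and 0.146 when a WT library was omitted, in the order of replicates 1 to 3, and 0.0606, 0.0713 and 0.193 for the knockout libraries). It also ended with the B cell covariate (0.0679), with library totals only (0.0539) and with no filter (0.07). That of Psmb3 remained only without knockout replicate 1 (0.064, 0.0634 and 0.118 on omitting WT replicates 1 to 3, 0.0601 and 0.132 on omitting knockout replicates 2 and 3). Psmb2 went from 279 ± 28.2 to 226 ± 29.6 FPKM (log2 fold change -0.32, adjusted p = 0.116) and Psmb1 from 301 ± 11.2 to 264 ± 5.17 (log2 fold change -0.20, adjusted p = 0.184). In Psmb1 the groups did not overlap.

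Each proteolytic site exists in a constitutive and an immune form. Psmb5 encodes the constitutive chymotrypsin-like site, Psmb7 the trypsin-like and Psmb6 the caspase-like one. Psmb7 fell from 145, 142 and 161 FPKM in WT to 108, 106 and 105 in knockout, by -0.50 on the log2 scale (SE 0.096, adjusted p = 0.00824). Psmb5 fell from 139, 140 and 173 to 110, 122 and 115 (log2 fold change -0.40, SE 0.11, adjusted p = 0.0412). Its call ended without WT replicates 1 or 3 (0.0688 and 0.146) or knockout replicates 1 or 3 (0.127 and 0.142), with the B cell covariate (0.0924), with scaling to library totals only (0.0593), and by limma with each pseudocount (0.0655 to 0.0691). Psmb6 was at 159, 193 and 199 in WT and at 179, 158 and 146 in knockout, and its groups overlapped (log2 fold change -0.20, SE 0.12, adjusted p = 0.301).

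None of the 3 immunoproteasome genes passed the edgeR test without a covariate or replicate block in either direction with all libraries. At an unadjusted p under 0.05, 2 were lower (16.1% of all genes were). Psmb8, the immune form of the chymotrypsin-like subunit, had the highest level of all members in WT, at 495, 488 and 590 FPKM, and stood at 448, 359 and 395 in knockout. Psmb9, the counterpart of Psmb6, was at 255, 233 and 305 in WT and at 210, 180 and 219 in knockout. In both genes every knockout library was below every WT library. Their log2 fold changes were of the size of those of Psmb5, -0.40 (SE 0.13, adjusted p = 0.0694) for Psmb8 and -0.39 (SE 0.13, adjusted p = 0.0894) for Psmb9. With DESeq2 in place of edgeR, Psmb8 passed, and limma passed 0 of the 3. With the replicate numbers as a block in edgeR, Psmb9 passed (adjusted p = 0.0368), while Psmb8 had 0.0503. Psmb10, the counterpart of Psmb7, was at 90.6, 73.1 and 81.8 against 71.9, 63.8 and 82.5, with overlapping groups (log2 fold change -0.18, SE 0.14, adjusted p = 0.435).

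Within a library, the immune form can be read as a share of its pair, which does not depend on scaling to library size. The share does depend on the scaling by transcript length. The mean for Psmb9 was 58.9% by FPKM and 52.5% by expected counts in WT, and 55.7% and 49.2% in knockout. Psmb8 made up 78.1%, 77.7% and 77.4% of the FPKM of Psmb8 and Psmb5 in WT and 80.4%, 74.6% and 77.5% in knockout. Psmb9 made up 61.6%, 54.6% and 60.5% of its pair with Psmb6 in WT and 54%, 53.2% and 60% in the knockout. Psmb10 made up 38.5%, 34.1% and 33.7% of its pair with Psmb7 in WT and 40%, 37.6% and 44% in knockout. The ranges of the groups overlapped in all 3 pairs. The differences of the means were -0.252, -3.16 and 5.13 percentage points, against SDs within groups of 0.384 to 3.76, and 3 libraries against 3 cannot give an exact two-sided permutation p below 0.1. By FPKM, Psmb8 therefore exceeded Psmb5 in every library, and Psmb10 was below Psmb7 in every library. By expected counts, Psmb8 again exceeded Psmb5 in every library. Psmb10 by counts made up 51% of its pair in knockout replicate 3 and 40.2% to 46.9% in the other libraries.

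**Figure D3:**
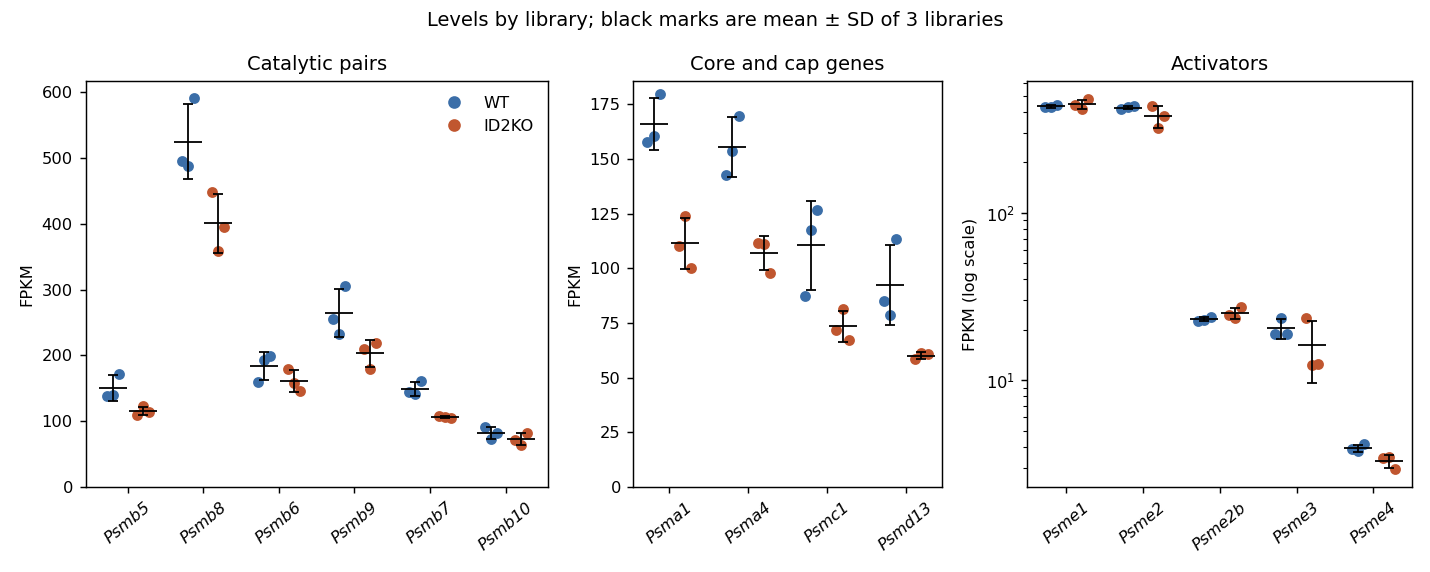
FPKM (vertical axis, logarithmic for the activators) of the catalytic pairs, of 4 core and cap genes and of the activators in each library, WT in blue and knockout in orange, with the mean and SD of 3 libraries in black. In Psma1, Psma4, Psmb5, Psmb7, Psmb8, Psmb9, Psmc1, Psmd13 and Psme4 every knockout library lies below every WT library, as in 16.8% of all genes tested. The groups overlap in the other genes shown, and Psme1 lies at 428 to 441 in WT and 418 to 476 in knockout.

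Psmb11 encodes the catalytic subunit of the thymoproteasome, which is known from thymic cortical epithelium. It was listed at 13.7, 9.41 and 11.5 FPKM in WT and at 15.3, 14.6 and 17.1 in knockout, and is the only member whose knockout libraries all lay above WT (15.3% of all genes did so). It did not pass (log2 fold change 0.42, SE 0.16, adjusted p = 0.121), except without WT replicate 1 (log2 fold change 0.61, adjusted p = 0.0335). The gene lies 7315 bases from Psmb5 on chromosome 14. Neither gene had whole counts in any library, so RSEM had divided some of their reads between genes. Which genes shared these reads, and the source of the Psmb11 reads, was not tested.

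The ATPases of the cap unfold substrates and open the gate of the core. They include 6 genes, of which 3 fell (8.77% of all genes fell). Psmc1 had 87.2, 118 and 126 FPKM in the WT libraries and 71.7, 81.4 and 67.3 in those of the knockout (log2 fold change -0.60, SE 0.13, adjusted p = 0.0149). Psmc2 had 80.5, 97.5 and 95.7 against 68.8, 70.8 and 69.5 (log2 fold change -0.40, SE 0.095, adjusted p = 0.0234). Psmc6 had 93.9, 107 and 97.4 against 70.9, 84.3 and 75.3 (log2 fold change -0.39, SE 0.096, adjusted p = 0.0273). The groups did not overlap in these 3 genes, and in WT replicate 1 Psmc1 and Psmc2 were closest to the knockout level. Psmc1 lost its call without WT replicate 3 (0.0679) or knockout replicates 1 or 3 (0.0587 and 0.0833). Psmc2 lost it without WT replicates 2 or 3 (0.0755 and 0.0901) or knockout replicates 1 or 3 (0.0712 and 0.0953), and Psmc6 kept it only without knockout replicate 2 (0.0589, 0.0876 and 0.067 on omitting WT replicates 1 to 3, 0.099 and 0.118 on omitting knockout replicates 1 and 3). With the B cell covariate Psmc2 and Psmc6 had adjusted p of 0.0532 and 0.0577, and by limma Psmc6 had 0.0518 to 0.0551. Psmc3, Psmc4 and Psmc5 had log2 fold changes of -0.27, -0.22 and -0.21 and adjusted p of 0.101, 0.19 and 0.16.

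Of the 11 cap subunits that are not ATPases 3 fell (8.77% of all genes fell). These were Psmd13, Psmd1 and Psmd8, which help to build the base and lid of the cap. Psmd13 was at 84.9, 78.7 and 113 FPKM in WT and at 58.4, 61.3 and 60.6 in knockout, and its log2 fold change of -0.63 was the lowest of the core and cap genes (SE 0.13, adjusted p = 0.0138). The size rested partly on WT replicate 3, without which it was -0.47 (adjusted p = 0.0432), and the call ended without knockout replicates 1 or 3 (0.0568 and 0.0597). Psmd1 was at 51.8, 53.7 and 68.7 against 45.6, 40.5 and 36.9 (log2 fold change -0.51, SE 0.13, adjusted p = 0.0306). Omitting WT replicate 3 (0.116), or replicates 2 or 3 of the knockout (0.0543 and 0.146), ended its call, as did the B cell covariate (0.0612) and limma with each pseudocount (0.055 to 0.0589). Psmd8 was at 144, 120 and 138 against 103, 101 and 102 (log2 fold change -0.42, SE 0.11, adjusted p = 0.0369), and it kept its call only without WT replicate 2 (0.12 and 0.116 on omitting WT replicates 1 and 3, 0.0865, 0.0632 and 0.129 on omitting knockout replicates 1 to 3). The groups did not overlap in any of these 3 genes.

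The remaining 8 had log2 fold changes between -0.30 and 0.00 and adjusted p of 0.0754 and above. They include Psmd14, the deubiquitinase of the lid, at 120 ± 4.84 and 101 ± 9.3 FPKM (log2 fold change -0.27, adjusted p = 0.136), and its inactive partner Psmd7 at 63.6 ± 6.57 and 52.8 ± 6.61 (log2 fold change -0.28, adjusted p = 0.128). The lid subunit genes Psmd12, Psmd11, Psmd6 and Psmd3 had log2 fold changes of -0.30, -0.30, -0.30 and -0.17, and the base subunit gene Psmd2 one of -0.21. Psmd4, which encodes a ubiquitin receptor of the cap, had 155, 186 and 189 FPKM in the WT libraries and 193, 164 and 175 in the others. Its groups overlapped and its log2 fold change was -0.00 (SE 0.11, adjusted p = 0.994).

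The activators dock on the ends of the core and need no ubiquitin. None of the 5 genes passed by edgeR, DESeq2 or limma (8.77% of all genes fell by edgeR). An unadjusted p under 0.05 was reached by 0 (16.1% of all genes were lower at that threshold). With only 5 genes, 0 calls cannot be told apart from these shares. The log2 fold changes ran from -0.35 to 0.10 with a median of -0.18. Psme1 and Psme2 encode the 2 chains of PA28, which interferon induces, and lie 5913 bases apart on chromosome 14. Psme1 was at 428, 430 and 441 FPKM in WT and at 440, 418 and 476 in knockout (log2 fold change 0.03, SE 0.10, adjusted p = 0.898). Psme2 was at 416, 429 and 432 against 435, 322 and 380 (log2 fold change -0.18, SE 0.13, adjusted p = 0.407), with the knockout libraries spread on both sides of the WT range. Psme2b, an intronless copy of Psme2, was at 23.1 ± 0.69 and 25.1 ± 2 FPKM, and the division of reads between these 2 genes is uncertain. Of the genes of nuclear activators, Psme4, at 3.86, 3.77 and 4.14 against 3.42, 3.49 and 2.96, did not overlap between groups (log2 fold change -0.27, SE 0.14, adjusted p = 0.25). Psme3, at 18.9, 23.7 and 18.9 against 23.7, 12.3 and 12.4, had 1 knockout library at the highest WT level. Its log2 fold change was -0.35 (SE 0.24, adjusted p = 0.394), and -0.74 when knockout replicate 1 was omitted (adjusted p = 0.0195, a call).

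The makeup of the summed signal was read as shares within each library. Activators made up 13.8%, 13.2% and 12.5% of the members' summed FPKM in WT and 15.4%, 14% and 16.1% in knockout, where every knockout library was above every WT library. The 20S core genes without the immune and thymic subunits made up 44.9%, 45.5% and 45.3% in WT and 44%, 44.7% and 42.6% in knockout, where every library was below every WT library. The shares of the cap, from 24.5% to 25.5% in WT and from 24.1% to 25.8% in knockout, and of the immunoproteasome genes, from 11.6% to 13.3% and from 10.9% to 12.5%, overlapped. As sums, the core went from 3117 ± 216 to 2501 ± 135 FPKM, the cap from 1726 ± 131 to 1416 ± 42.1, the immunoproteasome genes from 871 ± 95.3 to 677 ± 66 and the activators from 906 ± 15.8 to 868 ± 78.3. Psme1 was second to Psmb8 in WT (433 ± 7.25 against 525 ± 57.2 FPKM) and first in knockout (445 ± 29.1 against 401 ± 44.8). Whether the roles differ in their response was not tested.

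**Figure D4:**
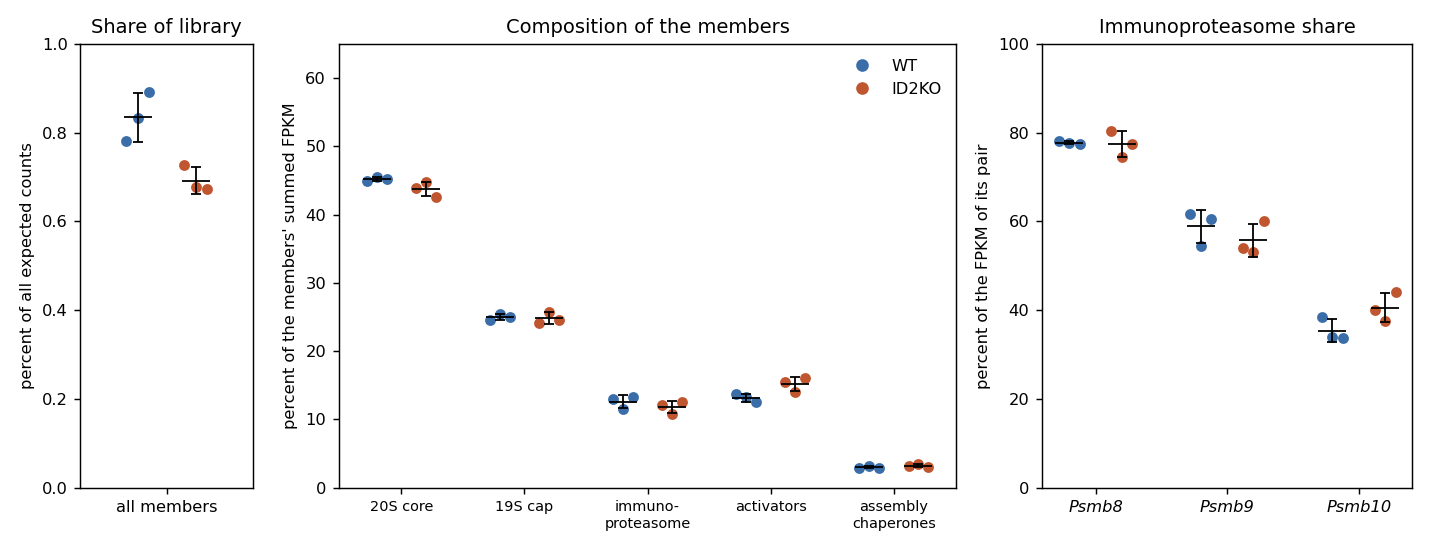
Left, percent of all expected counts held by the proteasome genes; middle, percent of their summed FPKM held by each role; right, percent of the FPKM of each catalytic pair held by the immune form, each per library with WT in blue, knockout in orange and mean and SD of 3 libraries in black. The activator share is 12.5% to 13.8% in WT and 14% to 16.1% in knockout, and the immune shares overlap between the groups.

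Assembly of the complex is guided by chaperones that leave it before it is finished. Psmd5, Psmd9 and Psmd10 serve the ATPase ring and Psmg1 to Psmg4 the alpha ring. None of these 7 genes passed by edgeR, DESeq2 or limma (8.77% of all genes fell by edgeR). An unadjusted p under 0.05 was reached by 0 (16.1% of all genes were lower at that threshold). With only 7 genes, 0 calls cannot be told apart from these shares. The groups overlapped in all 7 genes, while 16.8% of all genes were lower and 15.3% higher without overlap. Their log2 fold changes were between -0.31 and -0.05 with a median of -0.17. Psmg1 went from 31.8, 44 and 40.9 FPKM in WT to 34.8, 28.7 and 31.3 in knockout (log2 fold change -0.31, adjusted p = 0.21) and Psmd9 from 18.8 ± 2.62 to 18 ± 2.84 (log2 fold change -0.07, adjusted p = 0.767). As group means, the levels of these genes lay between 15.4 FPKM (Psmg3 in knockout) and 38.9 FPKM (Psmg1 in WT).

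Of the 2 genes that share only the name, Psmc3ip fell from 7.28, 7.42 and 10.8 FPKM in WT to 5.31, 4.3 and 3.34 in knockout, the lowest fold change of the 14 (log2 fold change -0.99, SE 0.28, adjusted p = 0.0482). It rested on 25 to 87 counts a library and lost its call without any 1 of the libraries (0.0664, 0.0672 and 0.181 on omitting WT replicates 1 to 3, 0.0565, 0.0845 and 0.186 on omitting those of the knockout). It also lost it with the size factors of DESeq2 (0.0503), library totals only (0.0533) or the B cell covariate (0.106). Without both name-sharing genes, 13 of 47 tested genes fell. For Psme3ip1 the log2 fold change was 0.01 (adjusted p = 0.974).

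Genes that work with the proteasome were read from 4 further lists, with 3 of 43 tested genes lower and 1 higher and a median log2 fold change of -0.02. The share that fell, 6.98%, was not above the 8.77% of all genes, so the lists as a whole did not exceed the background. Among 11 other subunits and partners, 2 fell. Uchl5, a deubiquitinase of the cap, fell from 56, 61.3 and 69.1 FPKM in WT to 43.9, 44.4 and 41.4 in knockout (log2 fold change -0.54, SE 0.10, adjusted p = 0.00748), and Txnl1, a thioredoxin-like protein bound to the cap, from 49.9, 37.7 and 73 to 25.7, 27.1 and 23.8 (log2 fold change -1.08, SE 0.20, adjusted p = 0.00734). Both kept their calls in each fit without 1 library, and the groups did not overlap. Pomp, which guides maturation of the core, was at 212 ± 7.96 and 172 ± 19.1 FPKM (log2 fold change -0.32, adjusted p = 0.11). Of 16 genes of ubiquitin supply and delivery 1 fell, Zfand5, whose product stimulates the proteasome, from 15 ± 1.11 to 10.9 ± 1.16 FPKM (log2 fold change -0.47, adjusted p = 0.0163). Its call ended without WT replicates 2 or 3 (0.0556 and 0.0548) or knockout replicate 3 (0.0914), and by limma (0.0626 to 0.0639).

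Of 11 tested regulators of proteasome and immunoproteasome transcription, 1 rose by edgeR and by DESeq2 and 0 by limma. Over all genes 3.14% rose by edgeR. None fell by these tools. At an unadjusted p under 0.05, 0 were lower and 2 were higher, Nlrc5 and Mafk (1251 of 10890 over all genes tested were higher). Of the 11 values 10 were above 0 (5654 of 10890 over all genes tested), with a median of 0.19. Nfe2l1 was at 7.6, 9.02 and 10 FPKM in WT and 7.66, 11.2 and 10.3 in knockout (log2 fold change 0.21, adjusted p = 0.426). Nlrc5, the activator of MHC class I and immunoproteasome genes, rose from 35.4, 34.8 and 44.9 to 48.5, 52.2 and 56.9 (log2 fold change 0.44, SE 0.12, adjusted p = 0.0436), a call that ended without WT replicates 1 or 2 (0.0954 and 0.134) or knockout replicates 1 or 3 (0.0679 and 0.192), with the B cell covariate (0.0571), and by limma with each pseudocount (0.0543 to 0.0581). Irf1 was at 247, 134 and 169 against 219, 225 and 250 (log2 fold change 0.31, adjusted p = 0.369), and at 0.64 without WT replicate 1 (adjusted p = 0.0192). None of the 5 genes of peptide transport and loading passed by any of these tools (8.77% of all genes fell and 3.14% rose by edgeR). At an unadjusted p under 0.05 there were 0 (16.1% of all genes were lower). With only 5 genes, 0 calls cannot be told apart from these shares. Tap1, which lies head to head with Psmb9, was at 111, 119 and 146 FPKM in WT and 117, 114 and 121 in knockout (log2 fold change -0.10, adjusted p = 0.606).

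The genes lie on many chromosomes, and 3 pairs are close neighbours: Psmb5 with Psmb11, Psme1 with Psme2, and Psmb9 with Psmb8 (chromosome 17, 10865 bases apart). By the GENCODE M21 annotation 15 of the members share exon bases with another gene. Among those that fell, Psmb7 shares 11.8% of its exon bases with Nek6, Psmd13 10.1% with Sirt3, Psma4 4.81% with AY074887, Psma5 4.54% with 1700010K24Rik and Psmc3ip 21.2% with Mlx, all on the opposite strand. Psmb5 shares 12.1% with Mir686 and Psmd1 4.14% with Gm21972 on the same strand. No source used here says if the counting kept strands apart, and reads in these stretches cannot be assigned to one gene. Psmb7 lies at chr2:38588046-38643952, Psma1 at chr7:114264550-114276116 and Psma4 at chr9:54950781-54958034 of GRCm38.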

How the data were processed

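The authors deposited 1 table per library with an expected count and an FPKM value for each gene, per the file headers. CASAVA, Bowtie2, RSEM and build mm10 are named in the submitters' processing notes, with no version. The deposited expected counts are not whole where reads match several genes. The deposited FPKM values divide by transcript length and library size. A gene missing from a table was taken as 0. NCBI gene numbers were matched to RefSeq symbols (GRCm38.p6); 42 of 16749 had none.

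Rounded expected counts were scaled by TMM and tested (two-sided) with edgeR 4.0.16 in R 4.3.3 for the 10890 genes that reached 1 FPKM in 3 or more of the 6 libraries, with Benjamini-Hochberg adjustment. The standard error is the log2 fold change divided by the square root of F. Alternatives were DESeq2 1.42.0, other scaling, limma 3.58.1 on log2(FPKM + 1), 0.5 or 0.1, other filters, a replicate block, a B cell marker covariate and each library left out. Members and lists were chosen with earlier results of these data known. Named genes are the catalytic pairs, the activators, up to 5 called genes a role and direction, and up to 3 per related list with Nfe2l1, Irf1, Nlrc5, Pomp and Tap1; other members are given by value or range. Comparison of protein sequences was planned and not done here.

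No libraries of a group were duplicates: chi-square values divided by their degrees of freedom were 5.55 to 18.4.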

Additional observations from a re-analysis of the deposited data

How the results depend on the processing

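No member reversed direction with a call. The number of proteasome genes that fell, 14 with all libraries, ranged from 3 to 9 with 1 library left out (6.12% to 18.4% of the members, against 4.99% to 9.94% of all genes). It was 8 with the B cell marker covariate (16.3% against 8.5%), and between 11 and 15 in the other alternatives (22.4% to 30.6% against 6.72% to 9.93%). The number that rose, 0 by edgeR with all libraries (1 at an unadjusted p under 0.05, 0 by DESeq2 and limma), ranged from 0 to 1. With 1 library left out, core genes that fell (7) ranged from 3 to 5, cap genes (6) from 0 to 4 and activator genes (0) from 0 to 1. In the other alternatives core genes came to 5 to 7, and cap genes to 4 to 6 or, with the covariate, 3. Activator genes stayed at 0, and immunoproteasome genes (0) came to 1 by DESeq2 (Psmb8) and 1 with the replicate block (Psmb9). Related genes that rose (1) were 0 by limma with each pseudocount and with the covariate, and 0 to 4 with 1 library left out. Whether the replicate numbers pair the samples cannot be decided from correlations over 3 libraries a group. Deviations from the group mean of same-numbered libraries correlated at 0.135, 0.0741 and -0.0699. Those of libraries with other numbers correlated at -0.225 to 0.18, and WT replicate 1 correlated best with knockout replicate 3 (0.162). With the replicate block 11 proteasome genes fell, of which 10 had also fallen without it. Psmb4, Psmb5, Psmd1 and Psmc3ip lost their call with the block (adjusted p = 0.0663, 0.0547, 0.0511 and 0.0901). Over the alternatives for single genes, 1372 values kept their side of the threshold, 83 lost a call and 10 gained one. The cause of these changes was not tested, except that fits without 1 library rest on fewer samples.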
